A study of Homo sapiens with 18 samples.

Results

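PCNA is the gene of the proliferating cell nuclear antigen, the sliding clamp of DNA replication, and it is described here across 6 groups of H1299 cells. It is 1 of 60622 genes in the deposited count tables and was found by its symbol. It was chosen by measured values, because its response to the p300/CBP compound had opposite signs with and without induction of p53, so every contrast that contains p300/CBP libraries is a description of PCNA and carries no test for it. The DMSO libraries of both states were part of the same values, and low induced and high non-induced DMSO values made that choice more likely. PCNA tests that use DMSO libraries are therefore not independent of the choice and support nothing by themselves; 1 tested contrast, induction under the PCAF/GCN5 compound, uses none of them.

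H1299, an established human line from a non-small cell lung cancer, lacks endogenous p53. Doxycycline drives a wild-type p53-FKBP12F36V-HA fusion in these cells. AceTAG compounds bind the FKBP12F36V part at one end and a lysine acetyltransferase at the other. The groups, each of 3 libraries at 24 h of treatment, were induced cells with AceTAGp300CBP-1 (the p300/CBP compound), induced cells with AceTAGPCAFGCN5-4 (the PCAF/GCN5 compound), induced cells with DMSO, and the same 3 treatments in non-induced cells. The labels give no dose, leave unstated whether doxycycline was given to non-induced cells, name the construct in the titles of induced samples only, and do not say that replicates were separate cultures, so p-values measure the spread between these libraries, which may be technical. RNA came from whole cultures, in which fewer cells in S phase and less PCNA RNA per cell cannot be told apart.

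The PCNA protein forms a ring of identical subunits that is opened and closed around DNA by the clamp loader, replication factor C. On DNA it tethers DNA polymerase delta, the flap nuclease FEN1 and DNA ligase 1, and after damage its ubiquitylated form recruits translesion polymerases such as POLH. The p53 target CDKN1A (p21) binds the clamp and blocks it. In many cell types PCNA RNA follows the replication genes driven by E2F factors and held down by the DREAM complex, and p53 can also bind near the gene and activate it.

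In the files PCNA lies on the minus strand of chromosome 20, from 5114953 to 5126626, with 8 distinct exon records and a merged exon length of 1403 bases. RefSeq (GRCh38.p14) gives it 2 start sites, at 5119958 and 5126622. Both upstream windows of 250 bases are shown because PCNA is known from textbooks as a target of both E2F and p53, and motif matches are in capitals. The gene-level counts cannot tell transcripts of the 2 starts apart.
PCNA, window of the upstream start, chr20:5126623-5126872, minus strand: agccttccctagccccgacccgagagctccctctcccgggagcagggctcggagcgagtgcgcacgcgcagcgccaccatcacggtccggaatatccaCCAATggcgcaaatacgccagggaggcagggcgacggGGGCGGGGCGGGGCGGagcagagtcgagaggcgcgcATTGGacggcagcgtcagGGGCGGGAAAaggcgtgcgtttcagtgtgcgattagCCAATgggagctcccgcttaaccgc
PCNA, window of the downstream start, chr20:5119959-5120208, minus strand: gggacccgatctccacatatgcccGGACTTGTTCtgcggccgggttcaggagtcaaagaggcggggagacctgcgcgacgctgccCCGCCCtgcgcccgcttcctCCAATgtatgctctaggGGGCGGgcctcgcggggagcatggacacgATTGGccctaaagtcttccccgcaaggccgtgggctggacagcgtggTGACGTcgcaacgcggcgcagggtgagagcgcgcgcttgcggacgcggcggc
The window of the upstream start held 1 E2F word, on the opposite strand from -59 to -52, where -1 is the base before the start. That word overlapped 1 of 4 GC boxes (GGGCGG), at -61 to -56, and 3 of those boxes overlapped each other. This window also held 3 CCAAT boxes, at -152, -79 and -25. The window of the downstream start held 1 exact p53 half-site, from -226 to -217, a TGACGT word of the CREB/ATF kind at -52, 2 CCAAT boxes and 2 GC boxes. Both strands were searched. The E2F words were TTTCGCGC, TTTCCCGC, TTTGGCGC and TTTGCCGC, and 2.79% of 35116 RefSeq windows of the same length held at least 1 of them. The p53 half-site consensus occurred in 5.57% of windows, CCAAT in 32%, the GC box in 42.6% and TGACGT in 7.10%. GC content was 68.4% and 69.2% in these PCNA windows, against a median of 58.0% over all windows. These matches describe letters only, since no binding was measured here.

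PCNA was well covered. Its counts ran from 2495 to 8123 per library, which is a counting error of 1.11% to 2.00%, in libraries with 9.06 to 29.2 M counts. PCNA levels are given as CPM, counts divided by the library total and put on a common scale. In induced cells PCNA stood at 321.6, 318.2 and 307.1 CPM with the p300/CBP compound, at 278.5, 297.4 and 289.6 CPM with the PCAF/GCN5 compound and at 245.8, 230.8 and 270.9 CPM with DMSO. In non-induced cells PCNA stood at 205.3, 197.7 and 196.5 CPM with the p300/CBP compound, at 253.5, 272.0 and 248.5 CPM with the PCAF/GCN5 compound and at 281.4, 282.9 and 275.5 CPM with DMSO. Within induced cells the p300/CBP libraries were the highest and the DMSO libraries the lowest, with no overlap between any of the 3 groups. Within non-induced cells the order was the other way round, again with no overlap.

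**Figure D1:**
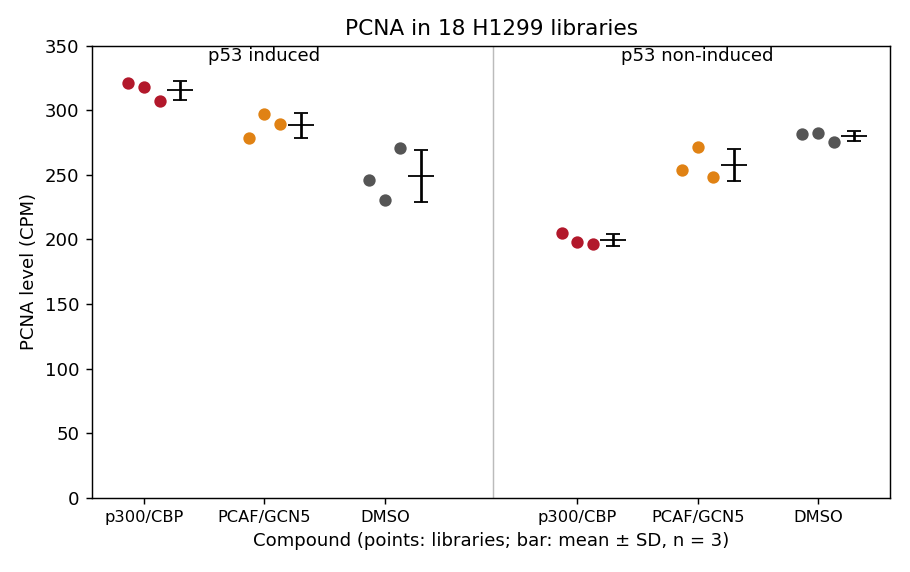
PCNA level in each of 18 libraries in CPM (points), by compound and by p53 induction, with the group mean and SD (n = 3) beside the points. The p300/CBP libraries are the highest of all groups in induced cells, at 307.1 to 321.6 CPM, and the lowest of all in non-induced cells, at 196.5 to 205.3 CPM.

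Over all 6 groups the mean PCNA level was 315.6 ± 7.58 CPM in induced cells with the p300/CBP compound (SD, n = 3 here and below). Next came induced cells with the PCAF/GCN5 compound at 288.5 ± 9.48 CPM and non-induced cells with DMSO at 279.9 ± 3.91 CPM, whose libraries overlapped and whose means changed places when libraries were scaled by TMM (283.9 against 285.0 CPM). Non-induced cells with the PCAF/GCN5 compound averaged 258.0 ± 12.4 CPM and induced cells with DMSO 249.2 ± 20.3 CPM, and these groups overlapped too. The lowest mean PCNA level was 199.9 ± 4.75 CPM, in non-induced cells with the p300/CBP compound. The third induced DMSO library had the highest PCNA level of its group, 270.9 CPM, and it stood apart in its mitochondrial share of counts, 0.714%, against 1.32% to 2.45% in the other 17 libraries. PCNA log2 fold changes that rest on this library are given with and without it, or as a range with 1 library left out.

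Changes are given as log2 fold changes ± SE from edgeR quasi-likelihood fits, and a gene was called where its Benjamini-Hochberg adjusted p over all genes tested was below 0.05. With the p300/CBP compound, the PCNA log2 fold change against DMSO was 0.33 ± 0.08 in induced cells, a fold of 1.26. That was above the value of 90.1% of the 15019 genes tested. Without the third induced DMSO library it was 0.41 ± 0.04. In non-induced cells the PCNA log2 fold change of the same compound was -0.50 ± 0.05, a fold of 0.705, which was above only 3.40% of 14943 genes. The difference between the 2 log2 fold changes was 0.85 ± 0.09, higher than 97.2% of genes. These 3 values are those that chose PCNA. The authors' deposited tables give log2 fold changes of 0.32 and -0.51 for PCNA in the induced and non-induced contrasts, with the induced sign turned to compound minus DMSO.

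With the PCAF/GCN5 compound PCNA had the same 2 signs at smaller size, and no test passed after adjustment. In induced cells its log2 fold change against DMSO was 0.17 ± 0.09 (95% interval -0.07 to 0.41, edgeR adjusted p = 0.506), and all 3 treated libraries lay above all 3 DMSO libraries. In non-induced cells it was -0.13 ± 0.05 (95% interval -0.27 to 0.01, edgeR adjusted p = 0.779), with all 3 treated libraries below the DMSO libraries. Even at such a separation an exact permutation test of 3 against 3 cannot go below 0.1. Both separations also use DMSO libraries that were part of the choice, so they add no support. The difference of these effects between the states was 0.31 ± 0.10, with an unadjusted p of 0.00590 and an edgeR adjusted p of 0.658. The p300/CBP and PCAF/GCN5 contrasts share their DMSO libraries, so their PCNA values are not independent of each other. For the PCAF/GCN5 compound in induced cells, the authors' deposited table gives 0.17 with an adjusted p of 0.0418, and for non-induced cells -0.14 with an adjusted p of 0.222. The mean scaled count of PCNA in the first of these tables, 9082, lies above every PCNA count of the libraries used here, so the authors' fits may rest on further libraries and their p-values are not set against the present ones.

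Between the compounds, for which no dose is given, PCNA differed by 0.15 ± 0.05 log2 in induced cells (p300/CBP over PCAF/GCN5). In non-induced cells this difference was -0.37 ± 0.06. Both are descriptions, since they contain the p300/CBP libraries.

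Induction of p53 on its own went with a lower PCNA mean. With DMSO, the induced cells' log2 fold change against non-induced cells was -0.19 ± 0.07 (unadjusted p = 0.0276, edgeR adjusted p = 0.120), and no induced DMSO library reached the lowest non-induced one. Without the third induced DMSO library the PCNA value was -0.27 ± 0.04 (edgeR adjusted p = 2.62e-07), and with all 6 groups fitted together it was -0.19 (edgeR adjusted p = 0.0348). Both lie below the threshold, but this direction is one that the choice of PCNA favours, so they are no support for it. Under the PCAF/GCN5 compound, induction went with a PCNA log2 fold change of 0.12 ± 0.07 (edgeR adjusted p = 0.195). Under the p300/CBP compound it was 0.65 ± 0.05, described without a test. Of the 5 PCNA contrasts that could be tested, 0 passed by edgeR and 0 by DESeq2, while 3 had an unadjusted edgeR p below 0.05.

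Of 9 genes that load PCNA onto DNA or unload it, 8 were lower under the p300/CBP compound in each state. Fewer passed in induced than in non-induced cells, but 0 of the 9 had a difference between the states that passed. Over all genes tested 1.09% had a positive difference that passed and 0.192% a negative one. Of 9 clamp loader and unloader genes, 5 fell in induced cells, with a list median of -0.42, where 3.04% of all genes tested fell, 2.94% rose and the median of all genes was -0.003. The largest falls were in the loader subunit RFC4 (-0.82 ± 0.17), in DSCC1 of the alternative loader (-0.62 ± 0.11) and in the unloader ATAD5 (-0.54 ± 0.13). RFC4 stood at 22.3, 21.7 and 33.3 CPM in the induced DMSO libraries, so the size of its fall rests in part on the third. In non-induced cells 7 of the 9 fell, with a median of -0.45, where 6.46% of all genes fell and 3.43% rose. RFC3 had the largest fall there, -0.66 ± 0.07, and 7 of the 9 values lay above that of PCNA. RFC1, the large subunit, did not pass in either state (-0.01 ± 0.10 and -0.07 ± 0.05); without the third induced DMSO library it was -0.13 in induced cells and passed (edgeR adjusted p = 0.0172).

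Replication enzymes and chromatin factors that bind PCNA fell in part, against the same shares over all genes as the loaders. In induced cells 6 of 12 tested genes fell (median -0.43), led by the flap nuclease FEN1 (-0.97 ± 0.17), the chromatin assembly subunit CHAF1A (-0.91 ± 0.13) and the clamp-binding factor PCLAF (-0.52 ± 0.11). In non-induced cells 11 of 13 fell (median -0.42), among them FEN1 (-0.64 ± 0.08) and PCLAF (-0.51 ± 0.08). FEN1 stood at 28.7, 30.2 and 25.5 CPM in induced cells with the p300/CBP compound, against 47.3, 45.6 and 70.7 CPM with DMSO. It stood at 72.9, 66.5 and 54.1 CPM in non-induced cells with the compound, against 102.1, 100.5 and 96.1 CPM with DMSO. FEN1 thus had no overlap between compound and DMSO in either state and the same direction in both, where PCNA had 2 directions. Polymerase delta, which PCNA holds on DNA, fell in its catalytic subunit POLD1 in both states (-0.43 ± 0.08 and -0.38 ± 0.08), while POLD2 (-0.25 ± 0.07) and POLD3 (-0.42 ± 0.08) passed in non-induced cells and not in induced cells; their difference between states was not past the threshold. Without the third induced DMSO library both passed in induced cells too (-0.27 and -0.31, edgeR adjusted p = 2.73e-06 and 0.00298), and without the third non-induced DMSO library POLD2 did not pass in non-induced cells (edgeR adjusted p = 0.0899). POLD4 was low, with group means of 2.8 to 5.4 CPM, and did not pass.

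The third list held 29 other replication genes (the MCM helicase, origin factors, primase, single-strand binding proteins and nucleotide enzymes). With the p300/CBP compound 21 of them fell in induced cells (median -0.56) and 28 fell in non-induced cells (median -0.51). The shares over all genes were those given for the loaders. The helicase subunit MCM2 fell by 0.91 ± 0.09 on the log2 scale in induced cells and by 0.79 ± 0.10 in non-induced cells. In induced cells PCNA lay above all 29, and above every tested gene of the loader and PCNA-binding lists. In non-induced cells 14 of the 29 lay above PCNA and 15 below, so its value there was near the middle of the list. These ranks, like those among the other lists, use values that chose PCNA and follow in part from that choice. Across these 3 replication lists no gene rose in either state by edgeR or by DESeq2, and none rose at an unadjusted p below 0.05. Without the third induced DMSO library 1 did, LIG1 in induced cells.

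**Figure D2:**
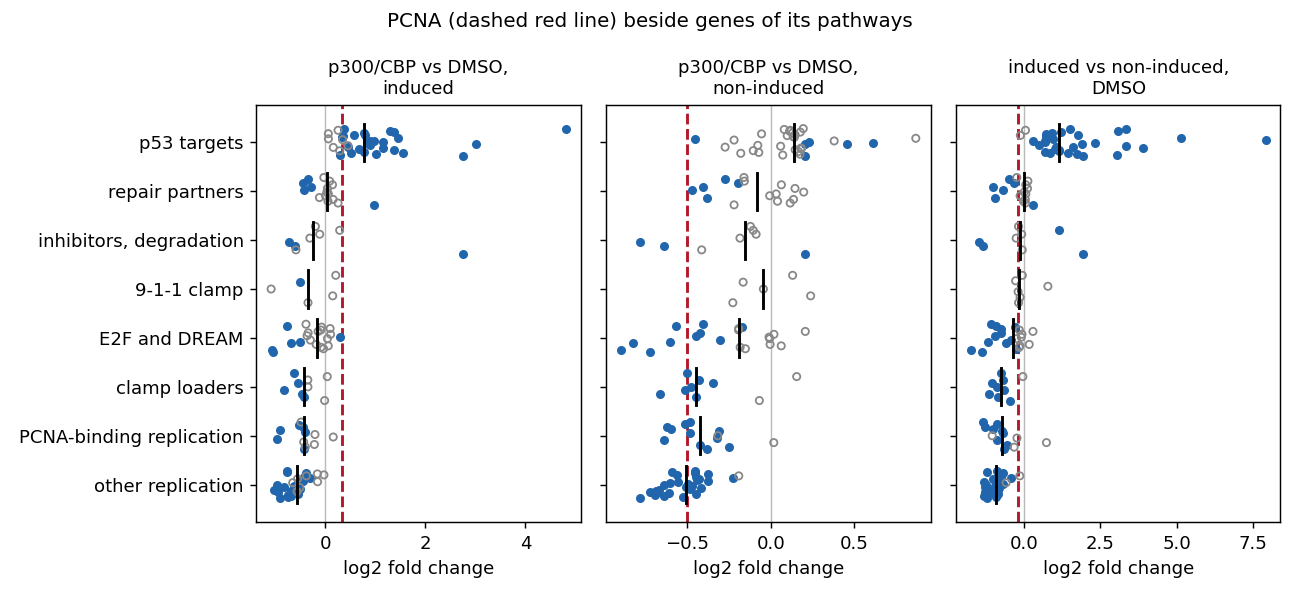
Log2 fold changes of the genes of 8 lists (points; filled where the edgeR adjusted p was below 0.05, open where not) for the p300/CBP compound over DMSO in induced and in non-induced cells, and for induced over non-induced cells with DMSO. Short black lines are list medians and the dashed red line is PCNA, which lies at 0.33, -0.50 and -0.19 in the panels from left to right; the axes differ in scale, and the outermost point of the third panel is PHLDA3, which had almost no counts in non-induced cells.

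Few replication genes had a p300/CBP response that differed between the states. The difference passed in 0 of 9 loaders, 0 of 13 PCNA-binding genes and 1 of 29 other replication genes. Such counts are near the shares over all genes. The 1 gene was TYMS, thymidylate synthase. Its log2 fold change was -0.03 ± 0.06 in induced cells and -0.57 ± 0.06 in non-induced cells, a difference of 0.55 ± 0.09 (edgeR adjusted p = 0.00522), where 1.09% of all genes tested had a positive difference that passed and 0.192% a negative one. TYMS averaged 251.1 ± 11.6 CPM in induced cells with the p300/CBP compound and 254.6 ± 12.0 CPM with DMSO, so unlike PCNA it was not higher with the compound. LIG1, the ligase that joins the lagging strand on PCNA, averaged 60.2 ± 1.95 CPM in induced cells with the compound and 53.6 ± 7.36 CPM with DMSO, a log2 fold change of 0.16 ± 0.10 that did not pass. In non-induced cells LIG1 fell by 0.32 ± 0.08 on the log2 scale, but without the third non-induced DMSO library it did not pass (edgeR adjusted p = 0.0711). The LIG1 difference between states was 0.49 ± 0.15 (edgeR adjusted p = 0.163); without the third induced DMSO library it was 0.60 and passed (edgeR adjusted p = 0.00075), and without the third non-induced one it was 0.47 (edgeR adjusted p = 0.326).

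Most genes of these lists fell with induction of p53 in DMSO. The loaders fell in 8 of 9 (median -0.76), the PCNA-binding list in 9 of 13 (median -0.73) and the other replication genes in 27 of 29 (median -0.92), where 7.77% of all genes fell and 6.01% rose. RFC3 fell by 1.13 ± 0.08, FEN1 by 0.89 ± 0.16 and MCM2 by 1.22 ± 0.07 on the log2 scale, against the PCNA value of -0.19 ± 0.07. Of the 29 other replication genes 1 lay above PCNA, RPA3 at -0.13 ± 0.15. When the shallowest library, the third of the non-induced DMSO group, was left out, 5 of 9 loaders fell in this contrast.

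The PCAF/GCN5 compound called far fewer genes. In induced cells 0 of 9 loaders, 0 of 13 PCNA-binding genes and 0 of 29 other replication genes passed by edgeR, where 0.338% of all genes rose and 0.00663% fell. At an unadjusted p below 0.05, 4, 4 and 14 of them were lower and 0 higher, and DESeq2 called 0, 1 and 2 lower. Their medians were -0.23, -0.15 and -0.26, against 0.17 for PCNA, which lay above all of the loaders, all of the PCNA-binding genes and all 29 others. That rank uses DMSO libraries that were part of the choice of PCNA. In non-induced cells none of the 3 lists had a gene that passed by edgeR or DESeq2, where 0.00662% of all genes rose and 0.0132% fell, and 0, 4 and 15 genes were lower at an unadjusted p below 0.05. FEN1 stood at 34.7, 37.6 and 34.7 CPM in induced cells given the PCAF/GCN5 compound, below each of its DMSO libraries, a log2 fold change of -0.65 ± 0.16 that did not pass (edgeR adjusted p = 0.271). FEN1 passed by DESeq2 (adjusted p = 0.0223), and without the third induced DMSO library, its highest DMSO value, it was -0.41 and passed by edgeR (adjusted p = 0.029).

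The p53 targets gave the other comparison for PCNA. In induced cells with the p300/CBP compound 26 of 33 rose and 0 fell (median 0.78), where 2.94% of all genes rose and 3.04% fell. Of the 33, 27 lay above PCNA. The largest rises were in TP53I11 (4.81 ± 0.09), the quinone oxidoreductase TP53I3 (3.0 ± 0.07) and CDKN1A (2.75 ± 0.08). MDM2, the ubiquitin ligase of p53, rose by a log2 of 0.29 ± 0.07, near the PCNA value, and the damage-recognition gene DDB2 had 0.16 ± 0.08 and did not pass. In non-induced cells 5 of 32 rose and 1 fell (median 0.14), where 3.43% of all genes rose and 6.46% fell. All 32 lay above PCNA. The gene that fell was AEN, a nuclease, at -0.46 ± 0.08. Its difference between the states was 0.53 ± 0.12 (edgeR adjusted p = 0.0444, and 0.119 without the third non-induced DMSO library), but in induced cells it had 0.06 ± 0.07. With induction alone 31 of 33 targets rose (median 1.14), where 6.01% of all genes rose and 7.77% fell. All 33 lay above PCNA. The PCNA ranks among the targets use values that were part of its choice, so they follow in part from it.

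POLH, the translesion polymerase that is recruited by ubiquitylated PCNA and is itself a p53 target, had the profile most like that of PCNA among the targets (Pearson's r = 0.72 over the 6 group means). By this r it ranked only 207 among 9481 genes, and the replication gene LIG1 had 0.70. The 6 means include the values that chose PCNA. In induced cells POLH stood at 77.4, 79.1 and 77.0 CPM with the p300/CBP compound, at 64.6, 72.3 and 67.1 CPM with the PCAF/GCN5 compound and at 40.6, 42.2 and 35.7 CPM with DMSO. In non-induced cells it stood at 29.8, 26.8 and 25 CPM, 26.9, 31.1 and 30.5 CPM, and 32.1, 31.1 and 30.9 CPM with the same treatments. Its induced libraries were thus high with either compound, and its non-induced p300/CBP libraries lay below its non-induced DMSO libraries, as those of PCNA did. The p300/CBP response of POLH was 0.97 ± 0.08 in induced cells (edgeR adjusted p = 2.46e-04) and -0.22 ± 0.08 in non-induced cells (edgeR adjusted p = 0.0903), and the difference of 1.2 ± 0.11 passed (edgeR adjusted p = 2.73e-05). Unlike PCNA, POLH rose with induction alone, by a log2 of 0.30 ± 0.08 (edgeR adjusted p = 0.0409); without the third non-induced DMSO library it was again 0.30 but did not pass (edgeR adjusted p = 0.135). A p300/CBP response that was higher in induced than in non-induced cells passed in 17 of 33 p53 targets. Over all genes tested 1.09% passed upward and 0.192% downward for that difference. Such a PCAF/GCN5 response passed in 6 of 33, where 0.0632% of all genes passed upward and 0.00632% downward. POLH was among both sets of targets.

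**Figure D3:**
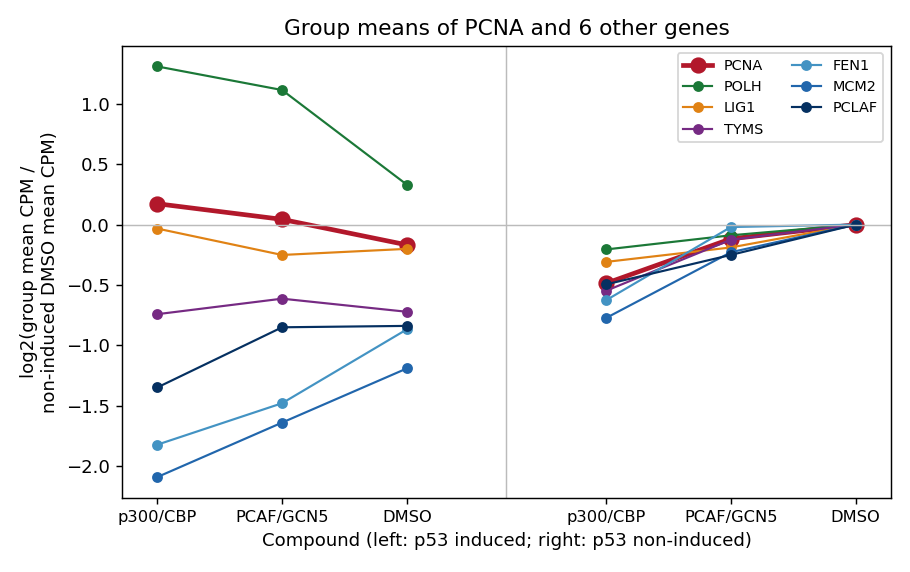
Group mean CPM of PCNA and 6 other genes as log2 of the ratio to the mean of non-induced DMSO cells, with induced groups on the left and non-induced groups on the right. In induced cells PCNA lies at 0.17 with the p300/CBP compound and at -0.17 with DMSO, between POLH above it and FEN1, MCM2 and PCLAF below it, and in non-induced cells with the p300/CBP compound it lies at -0.49 beside PCLAF.

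Other partners of PCNA were mixed. Of 16 repair and damage tolerance partners, 1 rose with the p300/CBP compound in induced cells (POLH) and 4 fell. Their median was 0.04, where 2.94% of all genes tested rose and 3.04% fell. The falls were in the mismatch repair gene MSH6 (-0.45 ± 0.09), in USP1 (-0.43 ± 0.08), which removes ubiquitin from PCNA, in PARPBP (-0.35 ± 0.09), and in UNG (-0.29 ± 0.07), the uracil glycosylase. In non-induced cells 0 rose and 5 fell (median -0.08), where 3.43% of all genes rose and 6.46% fell. Among the falls were USP1 (-0.47 ± 0.06), UNG (-0.41 ± 0.06) and RAD18 (-0.39 ± 0.07), the ligase that ubiquitylates PCNA. By DESeq2 the 2 counts of rises were the same, and at an unadjusted p below 0.05 1 of the 16 was higher in non-induced cells.

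The list of PCNA inhibition and of degradation on PCNA had 8 tested genes. With the p300/CBP compound 1 rose, 2 fell and 5 did not pass in each state. Over all genes tested 2.94% rose and 3.04% fell in induced cells, and 3.43% rose and 6.46% fell in non-induced cells. The gene that rose in both states was CDKN1A. In induced cells CDKN1A stood at 2332, 2451 and 2386 CPM with the p300/CBP compound, at 829.2, 805.7 and 859.0 CPM with the PCAF/GCN5 compound and at 380.4, 332.4 and 343.2 CPM with DMSO. In non-induced cells its p300/CBP response was 0.20 ± 0.06 (edgeR adjusted p = 0.0277), and without the third non-induced DMSO library it was 0.18 and did not pass (edgeR adjusted p = 0.122). DTL, the adaptor through which proteins bound to PCNA are ubiquitylated, and CDT1, a licensing factor destroyed in that way, both fell in both states. DTL had -0.73 ± 0.10 in induced and -0.79 ± 0.10 in non-induced cells, and CDT1 had -0.62 ± 0.07 and -0.64 ± 0.10. So in induced cells with the p300/CBP compound the RNA of the clamp and of its inhibitor p21 were both higher than with DMSO.

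The 9-1-1 complex, a clamp of related shape that signals damage, had 1 of 5 tested genes that fell with the p300/CBP compound in induced cells, RAD1 (-0.51 ± 0.10). For this list and the next, 3.04% of all genes tested fell and 2.94% rose in induced cells. The shares were 6.46% and 3.43% in non-induced cells. In non-induced cells 0 of 5 passed by edgeR or DESeq2, and 2 were lower at an unadjusted p below 0.05. E2F and DREAM genes, the regulators of replication genes, had 1 rise and 5 falls among 20 in induced cells, where DESeq2 called 8 falls. The rise was in RB1 (0.30 ± 0.07), and E2F2 (-1.07 ± 0.11) and E2F1 (-1.04 ± 0.11) had the largest falls. In non-induced cells 10 of 20 fell and 0 rose by edgeR or DESeq2 (0 at an unadjusted p below 0.05). E2F1 there had -0.72 ± 0.09. E2F1 RNA fell in both states, and its relation to PCNA was not tested.

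Few genes passed the test in opposite directions. Opposite signs were common, at 34.2% of 14617 genes tested in both states, and 2349 genes were higher in induced and lower in non-induced cells, as PCNA was. By the smaller of its 2 opposite changes PCNA ranked 92 among these 2349. PCNA was not tested here, since its 2 values chose it, and it is not counted among the genes that passed. Of the other genes, 3 passed upward in induced and downward in non-induced cells, SAC3D1, ANKRD20A5P and WDR34. In the other direction 1 passed, JADE2, while 363 genes passed in the same direction in both states. SAC3D1 had 1.28 ± 0.20 in induced and -0.44 ± 0.10 in non-induced cells, but its induced DMSO libraries varied (25 ± 8.66 CPM). WDR34 had 0.58 ± 0.11 and -0.32 ± 0.06, against PCNA at 0.33 and -0.50. ANKRD20A5P has near-identical copies, so its counts are uncertain. These counts move with 1 library: without the third induced DMSO library 14 genes other than PCNA passed up in induced and down in non-induced cells and 16 passed the other way. Without the third non-induced DMSO library JADE2 and ANKRD20A5P no longer passed in non-induced cells (edgeR adjusted p = 0.0995 and 0.0561).

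**Figure D4:**
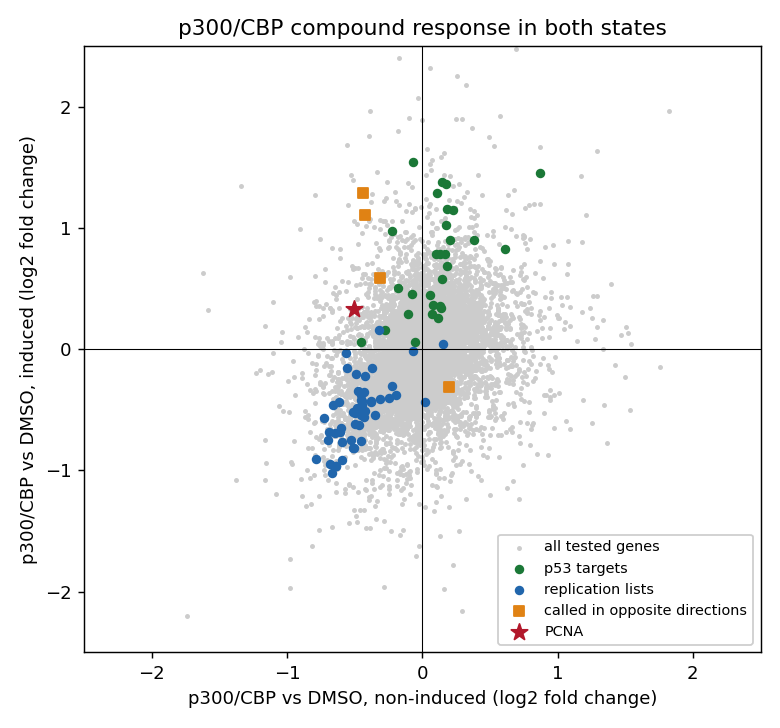
Log2 fold change of the p300/CBP compound over DMSO in non-induced (horizontal) and induced (vertical) cells for 14617 genes, of which 10 lie outside the axes at 2.5, including 3 p53 targets. PCNA (star) lies at -0.50 and 0.33, above the replication lists (blue) and left of the p53 targets (green). Those 2 values chose PCNA and were not tested. Squares mark the 4 genes that passed in opposite directions, PCNA not counted.

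The likeness of other genes to PCNA was measured as Pearson's r over the 6 group means of log2 CPM, for 9481 genes averaging at least 10 CPM, with no test, since 6 points share libraries and depth. The 10 most like PCNA were DUSP1 (r = 0.972), SREK1IP1, UBALD1, WDR43, MRPS18A, HSBP1, PA2G4, GSK3A, SFSWAP and RSL1D1 (r = 0.943). Their group means spanned much less than those of PCNA. The span was 0.37 log2 for PA2G4, the widest of the 10, and 0.07 for HSBP1, against 0.65 for PCNA. Over the 18 single libraries the ranking was different, with RBM38 first (r = 0.810), and 1 gene, PA2G4, was in both sets of 10. For the lists, the median r with PCNA was 0.56 over 31 p53 targets, of which all 31 were positive and POLH the highest. It was -0.36 over 28 other replication genes, of which 1 was positive, TYMS at 0.03. It was -0.34 over 8 loaders and -0.37 over 11 PCNA-binding genes, where LIG1 alone was positive, at 0.70. All ranked genes together had a median r near 0, at -0.002. The 6 means include the p300/CBP and DMSO values that chose PCNA. These r values, those of the lists among them, are therefore not independent of the choice.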

How the data were processed

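RNA of 18 libraries was analysed from 4 deposited tables, each of 1 compound and DMSO in 1 state. Per the file headers the tables hold raw counts per gene, a signal of counts scaled by size factors, log2 fold changes with errors, a Wald statistic (a score) and p-values with adjusted p-values, all made by the authors. Only the counts entered the fits. The submitters' processing notes name StringTie and DESeq2; the aligner, build, counter and strand setting are not given in the sources used here. In 1 table the line of ANK2 is broken and totals follow, so DMSO counts came from the other non-induced table, where intact lines held equal counts, and ANK2 was left out. Replicates were numbered in order, and no column was left unmapped. A check of the induction label is not reported here.

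Fits used only the groups compared and were made with edgeR 4.0.16 under R 4.3.3 (TMM, filterByExpr, glmQLFit, quasi-likelihood F test, 2-sided, Benjamini-Hochberg at 0.05); DESeq2 1.42.0 was an alternative. The SE is the log2 fold change divided by the square root of F, and the 95% intervals use it with the residual degrees of freedom of the libraries. The fits were tested on simulated data with 200 changed genes. PCNA passed the filter in all 11 comparisons. The median log2 fold change of all genes lay between -0.0094 and 0.0093, and other scalings shifted it by -0.03 to 0.02. Counting errors cover counting only. Samples with the same replicate number were not paired: their deviations correlated between -0.139 and 0.123 over 39 pairs.

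PCNA and the 8 gene lists were chosen with earlier results of these data known; 4 genes are in 2 lists (CDKN1A, GADD45A, POLH, POLK). Named were PCNA, at most the 3 largest rises and 3 largest falls past the threshold per list and comparison, CDKN1A, POLH, DDB2, MDM2, MCM2, FEN1, PCLAF and the RFC and POLD subunits always, the 10 genes most like PCNA, tested genes within 500 kb, and genes called in opposite directions. RPA3 and the values of TYMS, LIG1 and AEN outside the contrasts where they met the rule, and UNG and E2F1 where they were not among the 3 largest, were named after their values were seen.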

Additional observations from a re-analysis of the deposited data

Results flagged for a closer look

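PCNA stood out because the effect of the p300/CBP compound on it differed between induced and non-induced cells. The difference was 0.85 ± 0.09 on the log2 scale. All 3 induced libraries with the compound lay above all induced DMSO libraries, and all 3 non-induced ones lay below all non-induced DMSO libraries. The difference was not tested, since PCNA was chosen for it.

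The effect of the PCAF/GCN5 compound on PCNA differed between the states in the same way, by 0.31 ± 0.10, with every library of each state on the same side of its DMSO libraries. That difference had an unadjusted p of 0.00590 and did not pass over all genes (edgeR adjusted p = 0.658). The 2 differences share the DMSO libraries, which were part of the values that chose PCNA, so neither this direction nor its p is independent of the choice. Their cause was not tested.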

How the results depend on the processing

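Of 66 recomputed values of the tested PCNA contrasts 64 kept their direction and side of the threshold; of 78 values of the contrasts without a test 77 moved by less than the spread between replicates. In all, 0 reversed. The PCNA value for induction with DMSO was -0.19 and below the threshold with all 6 groups in 1 fit, and it ran from -0.27 to -0.14 with 1 library left out. The p300/CBP difference of PCNA between the states ran from 0.79 to 0.91 with 1 library left out. The p300/CBP value in induced cells ran from 0.28 to 0.41, the top without the third induced DMSO library. Without that library the PCAF/GCN5 values of PCNA were 0.25 in induced cells (adjusted p = 0.124) and 0.39 for the difference between states (adjusted p = 0.0535). With a replicate block the PCNA values were 0.18, -0.13, -0.20, 0.12 and 0.31 for the tested contrasts and 0.33, -0.51 and 0.85 for the p300/CBP effects, and the block changed no PCNA call. Counts of genes called moved more. In induced cells the p300/CBP contrast called 898 genes, 2106 with no filter, 2214 with all groups in 1 fit, 530 with the block and 263 to 3234 with 1 library left out. In non-induced cells it called 1478, 615 with all groups and 527 to 2384 with 1 left out. Its difference between states called 200, 416 with no filter and 123 to 432 with 1 left out. The PCAF/GCN5 contrast called 52 in induced cells (128 by DESeq2, 541 with no filter, 352 with all groups, 29 to 114) and 3 in non-induced cells (48 with no filter, 0 with all groups, 14 with the block, 0 to 17). Its difference called 11 (49 by DESeq2, 258 with no filter, 38 with all groups, 8 to 24). Induction with DMSO called 2075 (3455 with all groups, 869 to 5001). The compounds against each other called 617 in induced cells (394 with all groups, 236 to 1098) and 165 in non-induced cells (439 by DESeq2, 594 with no filter, 46 with the block, 1 to 310). Genes other than PCNA that passed in opposite directions were 4, and 7 by DESeq2. List counts and single genes without the third DMSO library of either state, and by DESeq2, were alternatives chosen after seeing the data. The cause of these moves was not tested. With 3 libraries a group, an exact permutation test of 1 gene cannot go below 0.1.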

Other observations

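Around PCNA, 32 other genes of the files lie within 500 kb, and 7 were tested. CDS2, a lipid synthesis gene that starts 0.253 kb from PCNA on the other strand, did not share its 2 directions. Its p300/CBP response was 0.16 ± 0.06 in induced cells, which did not pass, and 0.18 ± 0.05 in non-induced cells (edgeR adjusted p = 0.0476, DESeq2 0.0539). Without the third DMSO library of each state in turn these were 0.13 (edgeR adjusted p = 0.0412) in induced cells and 0.15 (edgeR adjusted p = 0.166) in non-induced cells. CDS2 also rose with induction alone, by a log2 of 0.31 ± 0.06, though not without the third non-induced DMSO library (0.29, edgeR adjusted p = 0.0725). TMEM230, on the strand of PCNA with its 5′ end 1.85 kb downstream of it, had 0.21 ± 0.12 and 0.02 ± 0.05 and did not pass. Farther away, GPCPD1 rose with the compound in induced cells (0.63 ± 0.11, edgeR adjusted p = 0.0147). RASSF2 fell there (-0.48 ± 0.12), close to the threshold (edgeR adjusted p = 0.0483). Over all genes tested 2.94% rose and 3.04% fell in that contrast. PRNP, SLC23A2 and UBE2D3P1 passed in neither state.

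Copies of PCNA took few counts. PCNAP1 had 0, PCNAP3 had 13 and PCNAP4 had 2 counts over all 18 libraries, against 109527 for PCNA. The gene AL121924.1 overlaps PCNA and had at most 2 counts in a library. An antisense RNA of PCNA was not analysed here.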
